A study of Mus musculus with 22 samples.

Results

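The Cyp2j genes encode cytochrome P450 enzymes of family 2, subfamily J, and 7 protein-coding members lie in a row on mouse chromosome 4: Cyp2j13, Cyp2j12, Cyp2j11, Cyp2j8, Cyp2j6, Cyp2j9 and Cyp2j5. They are 7 of the 21883 protein-coding genes of assembled chromosomes in the RefSeq table used. They were chosen by the lamin A/C coverage of Cyp2j6 in these same libraries, compared between cells without and with Lap2alpha, so that comparison is given as a description with no test. For each gene, the body on GRCm38 plus 1 kb on each side formed a window, and the percent of that window lying in listed regions was taken in each of 18 region lists.

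The lists come from chromatin immunoprecipitation with sequencing (ChIP-seq), which recovers DNA bound by a protein, in mouse dermal fibroblasts. The cells were wildtype (WT) or labelled as a Lap2alpha knockout (KO), and all were grown in the same serum-containing medium. Lamin A/C was precipitated with antibody 3A6 or antibody E1, BRG1 and CHD4 with an antibody each in both genotypes, and Lap2alpha with antibody 1H11 in WT cells. Chromatin was sheared for 16 or 20 sonication cycles, and every combination of genotype, antibody and cycles was 1 library, so 4 matched lamin A/C pairs, 2 BRG1 pairs and 2 CHD4 pairs carry the comparisons. The labels used here do not say how the knockout was made or whether cells came from a clone or several animals, and region lists do not show the deletion. BRG1 regions lay at gene ends in all 4 BRG1 lists for 8 of 12 fibroblast marker genes, against 39.6% of all protein-coding genes of 5 kb or more. The same count was 0 of 8 hepatocyte, 0 of 8 keratinocyte, 0 of 6 intestinal epithelium markers and 0 of the 7 Cyp2j genes.

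CYP2J enzymes sit in the endoplasmic reticulum and oxidise arachidonic acid to epoxyeicosatrienoic acids, lipid mediators best known for effects on vessels and inflammation. In mouse, Cyp2j5 is known from kidney and liver, Cyp2j9 from brain, and Cyp2j6 from several tissues. A-type lamins form a meshwork at the nuclear edge that holds gene-poor, mostly silent chromatin, and a further pool in the nuclear interior is bound by Lap2alpha. BRG1 is the ATPase of SWI/SNF complexes, which slide or evict nucleosomes at promoters and enhancers, and CHD4 is the ATPase of NuRD, a complex that joins remodelling to histone deacetylation.

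All 7 genes lie on the minus strand between chr4:96042660 and chr4:96664171 (GRCm38). Cyp2j13 (chr4:96042660-96077566) and Cyp2j12 (chr4:96099316-96141152) come first in chromosome coordinates. Cyp2j11 (chr4:96294508-96348693) stands alone between wide gaps. Cyp2j8 (chr4:96443950-96507397), Cyp2j6 (chr4:96516138-96564305) and Cyp2j9 (chr4:96568424-96592523) follow closely on each other, 8740 bp and 4118 bp apart, and Cyp2j5 (chr4:96627432-96664171) is last. The bodies run from 24.1 kb (Cyp2j9) to 63.4 kb (Cyp2j8). With 1 kb added at the ends, the cluster span is 623512 bp long and also holds 3 Cyp2j pseudogenes.

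The promoters of Cyp2j6, Cyp2j9 and Cyp2j8 are printed because BRG1 regions lay within 1 kb of the Cyp2j6 and Cyp2j9 start sites in both WT lists and in no KO list, while the start site of their neighbour Cyp2j8 had none in any list. The sequences are RefSeq's (GRCm38.p6, minus strand, 5′ to 3′), from 250 bases before to 50 bases after the start site. For Cyp2j6 the start site of the promoter entry, chr4:96553651, lies inside the gene body, whose upstream end is at chr4:96564305. Start site and body were each used as given. Capitals mark bases inside BRG1 regions of both WT lists. They come from chr4:96553602-96553901 for Cyp2j6, chr4:96591436-96591735 for Cyp2j9 and chr4:96507348-96507647 for Cyp2j8.
Cyp2j6: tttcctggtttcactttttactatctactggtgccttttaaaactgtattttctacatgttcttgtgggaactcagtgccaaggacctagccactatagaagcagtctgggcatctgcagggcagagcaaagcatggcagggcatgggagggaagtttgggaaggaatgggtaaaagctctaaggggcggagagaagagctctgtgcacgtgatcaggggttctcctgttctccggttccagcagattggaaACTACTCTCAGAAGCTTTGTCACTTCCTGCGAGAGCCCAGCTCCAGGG
Cyp2j9: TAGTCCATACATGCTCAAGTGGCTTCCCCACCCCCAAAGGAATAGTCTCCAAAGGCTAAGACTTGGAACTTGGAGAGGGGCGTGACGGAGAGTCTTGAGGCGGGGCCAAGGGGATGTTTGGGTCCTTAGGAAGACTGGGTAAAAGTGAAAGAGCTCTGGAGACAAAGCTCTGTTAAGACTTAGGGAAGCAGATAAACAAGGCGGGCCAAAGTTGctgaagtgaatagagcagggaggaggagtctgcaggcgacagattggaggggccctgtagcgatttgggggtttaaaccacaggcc
Cyp2j8: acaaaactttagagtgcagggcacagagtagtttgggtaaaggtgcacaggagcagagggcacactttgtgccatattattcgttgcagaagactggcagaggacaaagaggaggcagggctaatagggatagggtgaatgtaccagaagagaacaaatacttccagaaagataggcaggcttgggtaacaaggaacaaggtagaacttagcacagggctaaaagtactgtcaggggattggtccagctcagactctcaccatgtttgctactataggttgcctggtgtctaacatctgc

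In the Cyp2j6 promoter 48 bases, all after the start site, lay in the shared WT BRG1 stretch, and in the Cyp2j9 promoter 214 bases did. The 7 promoters were poor in CpG, with 1 (Cyp2j8) to 6 (Cyp2j9) in 300 bases against a median of 13 over 21262 mouse promoters of the same length. Motifs were searched as letters on both strands. CACGTG, the E-box, was found in Cyp2j6 alone among the 7 and in 7.84% of all promoters. TATAAA, the TATA box, was found in Cyp2j5 alone and in 12.6% of all promoters. CCAAT was found in 4 of the 7 (38.2% of all promoters), GGGCGG in 3 of the 7 (46.2%), and TGANTCA in none of them (6.99%). The letters of Cyp2j6's GGGCGG and CACGTG matches lie upstream of the capitals. Aligned bases of any pair of the 7 promoters were 68.7% to 80.1% identical, over 47 to 248 aligned bases. Bases opposite gaps were left out, which raises these values, and unrelated promoters were not aligned for comparison.

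Every Cyp2j gene held lamin A/C regions in all 8 lamin lists, a state found in 5.01% of protein-coding genes of 5 kb or more. With 3A6 and 16 cycles the coverage of the 7 windows ran from 1.38% (Cyp2j13) to 5.90% (Cyp2j9) in WT and from 0.70% (Cyp2j11) to 4.13% (Cyp2j12) in KO. With 3A6 and 20 cycles it ran from 3.93% (Cyp2j6) to 18.5% (Cyp2j8) in WT and from 6.59% (Cyp2j9) to 10.6% (Cyp2j12) in KO. The genotypes' ranges overlapped with this antibody. With E1 and 16 cycles it ran from 0.40% (Cyp2j6) to 2.07% (Cyp2j8) in WT and from 4.76% (Cyp2j13) to 8.06% (Cyp2j6) in KO. With E1 and 20 cycles it ran from 2.32% (Cyp2j13) to 12.2% (Cyp2j8) in WT and from 14.4% (Cyp2j13) to 26.8% (Cyp2j5) in KO. With E1 the lowest KO value was above the highest WT value at both sonication lengths. Divided by the genome-wide coverage of each list, the E1 ranges overlapped. WT Cyp2j8 was at 4.68-fold and KO Cyp2j13 at 4.41-fold at 16 cycles, and at 6.62-fold and 4.70-fold at 20 cycles. On that scale each of the 7 genes was still higher in KO in both E1 pairs. The median coverage over all protein-coding genes of 5 kb or more was 0% in all 4 WT lists and at most 1.11% in the KO lists. Every value of the 7 genes was above the median of all genes in its list, except that of Cyp2j11 in KO with 3A6 at 16 cycles.

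**Figure D1:**
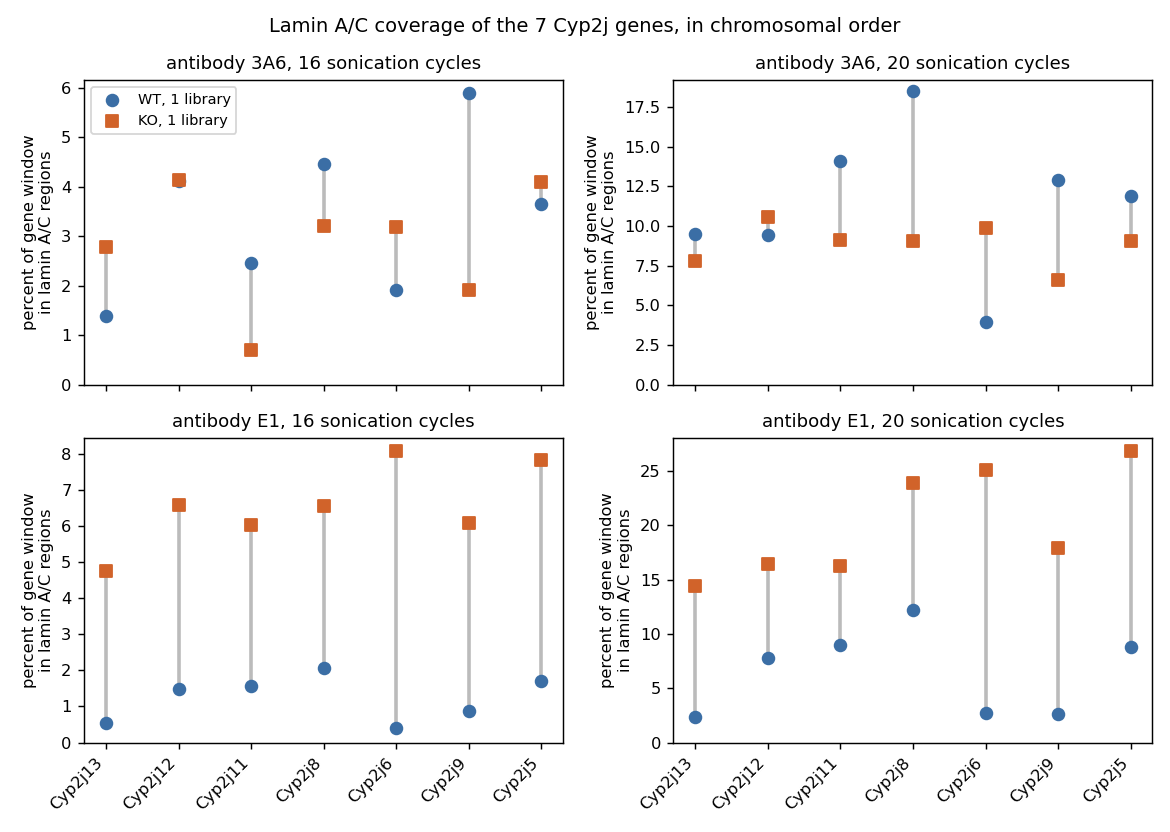
Percent of each Cyp2j gene window (body plus 1 kb on each side) in lamin A/C regions, 1 panel per antibody and sonication length, with 1 point per library (circles WT, squares KO) and genes in chromosomal order. All 7 squares lie above the circles in both E1 panels, and in the 3A6 panels Cyp2j8, Cyp2j9 and Cyp2j11 have the square below the circle.

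Coverage was higher in KO for 4 of 7 genes with 3A6 at 16 cycles (64.1% of all protein-coding genes of 5 kb or more), for 2 of 7 with 3A6 at 20 cycles (46%), and for 7 of 7 with E1 at 16 cycles (24.9%) and at 20 cycles (20.9%). Both 3A6 pairs were lower in KO for Cyp2j8, Cyp2j9 and Cyp2j11, as in 3.19% of all genes, while both E1 pairs were higher. That opposite pattern, E1 higher and 3A6 lower, was met by 3 of 7 Cyp2j genes and by 1.42% of all genes. The lists themselves also differed. Lamin A/C regions covered 0.884% of the genome in WT and 1.66% in KO with 3A6 at 16 cycles, 2.50% and 2.27% at 20 cycles, 0.442% and 1.08% with E1 at 16 cycles, and 1.85% and 3.06% at 20 cycles. At 20 cycles with 3A6, the WT list held no overlapping intervals and reached 3220 bp in width, while the KO list held overlapping intervals and reached 1184 bp. The part of list length and list form in these differences was not tested.

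Cyp2j6 and Cyp2j12 were the members whose coverage by lamin A/C was higher in KO in each of the 4 pairs, 2 of 7 against 9.94% of all protein-coding genes of 5 kb or more and 7.78% of those of 20 to 70 kb. Cyp2j6 went from 1.91% in WT to 3.19% in KO with 3A6 at 16 cycles and from 3.93% to 9.89% at 20 cycles. With E1 it went from 0.40% to 8.06% at 16 cycles and from 2.76% to 25.1% at 20 cycles. The KO value was the higher in each pair, but the ranges over all WT and all KO libraries overlapped. The number of separate regions in its window went from 4 to 7, from 7 to 18, from 1 to 12 and from 6 to 28 in the same order of pairs. The mean difference was 9.29 ± 9.07 percentage points (SD over the 4 pairs, which differ in antibody and sonication and are not replicates), the 13th highest of 16849 genes. Cyp2j6 was chosen by this comparison, so a high rank follows from the choice and is no separate support. Cyp2j12 went from 4.12% to 4.13%, from 9.45% to 10.6%, from 1.49% to 6.58% and from 7.82% to 16.5%. Its mean difference was 3.71 ± 3.95 points (SD, n = 4 pairs), and its 3A6 pair at 16 cycles was level to 0.0137 points.

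Divided by the genome-wide coverage of each list, no Cyp2j gene was higher in KO in all 4 pairs (0 of 7, against 8.99% of all genes). On that scale Cyp2j6 went from 2.16-fold to 1.93-fold of the genome-wide coverage with 3A6 at 16 cycles, from 1.57-fold to 4.36-fold at 20 cycles, from 0.911-fold to 7.47-fold with E1 at 16 cycles and from 1.497-fold to 8.19-fold at 20 cycles. It was thus lower in KO in the first pair and higher in the other 3. Cyp2j12 went from 4.66-fold to 2.50-fold in the first pair and was higher in KO in the other 3.

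The place of Cyp2j6 among the 7 genes also differed between genotypes. In WT lists Cyp2j6 had 49.2% (3A6, 16 cycles), 31.8% (3A6, 20 cycles), 26.5% (E1, 16 cycles) and 33.2% (E1, 20 cycles) of the median coverage of the other 6 genes. In KO lists it had 107%, 109%, 128% and 146% of that median. All 4 WT values were below all 4 KO values. Counted from the lowest of the 7 genes, Cyp2j6 held rank 2, 1, 1 and 3 in the WT lists and rank 4, 6, 7 and 6 in the KO lists, in the same order of pairs. This ratio was chosen after the values were seen, and it rests on the lamin A/C values by which Cyp2j6 was chosen.

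**Figure D2:**
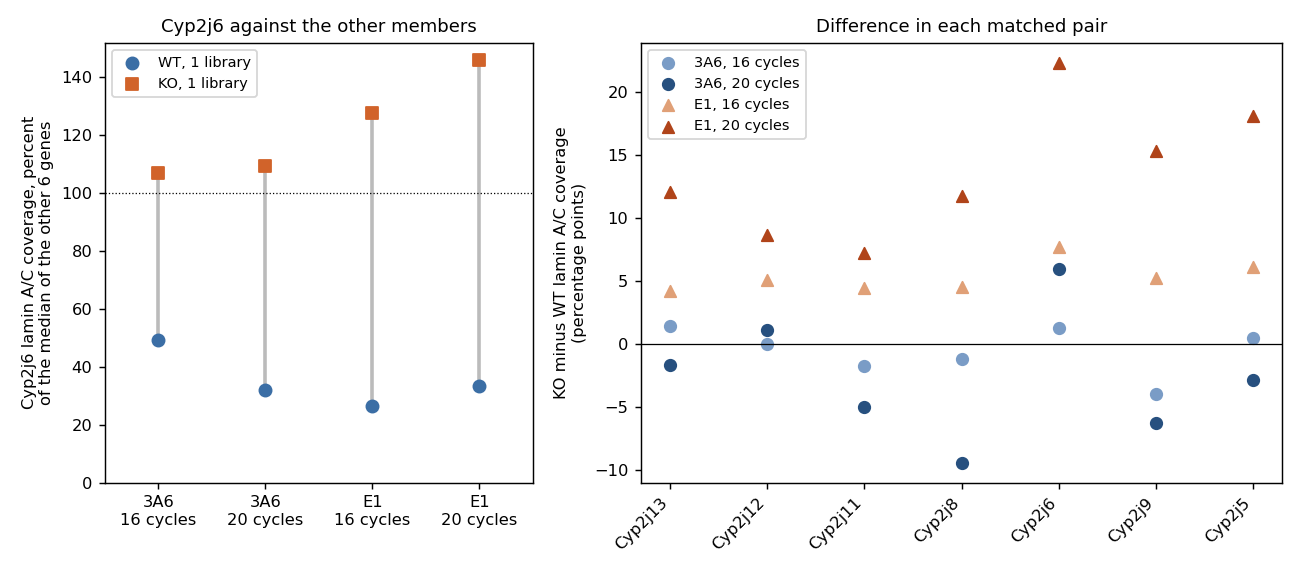
Left, lamin A/C coverage of Cyp2j6 as a percent of the median of the other 6 Cyp2j genes in the same library (dotted line at 100). Right, KO minus WT coverage in percentage points for each gene and matched pair. Cyp2j6 lies between 26.5% and 49.2% in WT lists and between 107% and 146% in KO lists, and it has all 4 differences above 0.

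Cyp2j5, known for its role in the kidney, went from 3.66% to 4.08% with 3A6 at 16 cycles, from 11.9% to 9.03% at 20 cycles, from 1.71% to 7.81% with E1 at 16 cycles and from 8.81% to 26.8% at 20 cycles. Its mean difference of 5.43 ± 9.18 points was the largest after that of Cyp2j6 and was positive in 3 of 4 pairs. Cyp2j13 went from 1.38% to 2.77%, from 9.47% to 7.77%, from 0.54% to 4.76% and from 2.32% to 14.4%, a mean of 3.99 ± 5.89 points with 3 of 4 pairs positive. Both genes were lower in KO with 3A6 at 20 cycles alone.

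Cyp2j9, the brain member, went from 5.90% to 1.91%, from 12.9% to 6.59%, from 0.87% to 6.08% and from 2.64% to 17.9% in the same order of pairs. Cyp2j8 went from 4.45% to 3.21%, from 18.5% to 9.08%, from 2.07% to 6.54% and from 12.2% to 23.9%. Cyp2j11 went from 2.47% to 0.70%, from 14.1% to 9.09%, from 1.56% to 6.01% and from 8.98% to 16.2%. For these 3 genes the direction followed the antibody at both sonication lengths. Their mean differences were 2.55 ± 9.82, 1.38 ± 8.93 and 1.23 ± 5.61 points (SD, n = 4 pairs), all within the spread over pairs. The mean differences of Cyp2j5, Cyp2j13 and Cyp2j12 were also smaller than their SDs, and that of Cyp2j6 was just above its SD.

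Shares of bases listed in 1 genotype alone follow in part from the amount of lamin A/C coverage. Cyp2j6 was chosen by that amount, so its shares are no separate support. Lists of the same genotype also shared few bases. In the span of 623512 bp, 717 bp lay in all 4 KO lists and 0 bp in all 4 WT lists. Bases listed in at least 1 KO lamin A/C list and in no WT list made up 28.9% of the Cyp2j6 window, and bases listed in WT alone made up 3.11%. Over the whole cluster span the shares were 16.1% and 8.19%. Stretches of at least 100 bp listed in 3 or 4 KO lists and in no WT list numbered 4 in the span, 2 of them in the Cyp2j6 window. These lay at chr4:96534563-96534674 and chr4:96557041-96557267, both within the RefSeq body of Cyp2j6. The second was at position -3503 from the Cyp2j6 start site used (negative positions are upstream), which itself lies inside that body. Another lay at chr4:96507603-96507728, at position -268 from the Cyp2j8 start site, and the last lay between genes. Stretches of at least 100 bp listed in at least 3 lists of each genotype were found in the Cyp2j8 window alone, 2 in number. No stretch of that kind lay over Cyp2j6.

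Around the cluster, lamin A/C coverage differed between the sides. In the 500 kb before the span, which hold Fggy, a carbohydrate kinase gene, and Hook1, a microtubule adaptor gene, coverage was 0.13% ± 0.11 in WT lists and 1.21% ± 0.47 in KO lists (SD over 4 libraries each). It was higher in KO in 4 of 4 pairs, and of 50 bins of 10 kb, 44 were empty of lamin A/C regions in all WT lists and 11 in all KO lists. BRG1 covered 4.30% there in WT and 6.32% in KO (means of 2 libraries). Inside the span lamin A/C coverage was 6.56% ± 5.00 in WT and 9.47% ± 7.25 in KO, with 2 of 4 pairs higher in KO, while BRG1 covered 0.48% and 0.22%. In the 500 kb after the span, which hold the predicted gene Gm12695, lamin A/C coverage was 7.12% ± 5.11 and 8.47% ± 5.96, also with 2 of 4 pairs higher. The cluster thus stood at the end of a stretch with lamin A/C coverage and nearly without BRG1, and the border was at the same side in both genotypes.

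**Figure D3:**
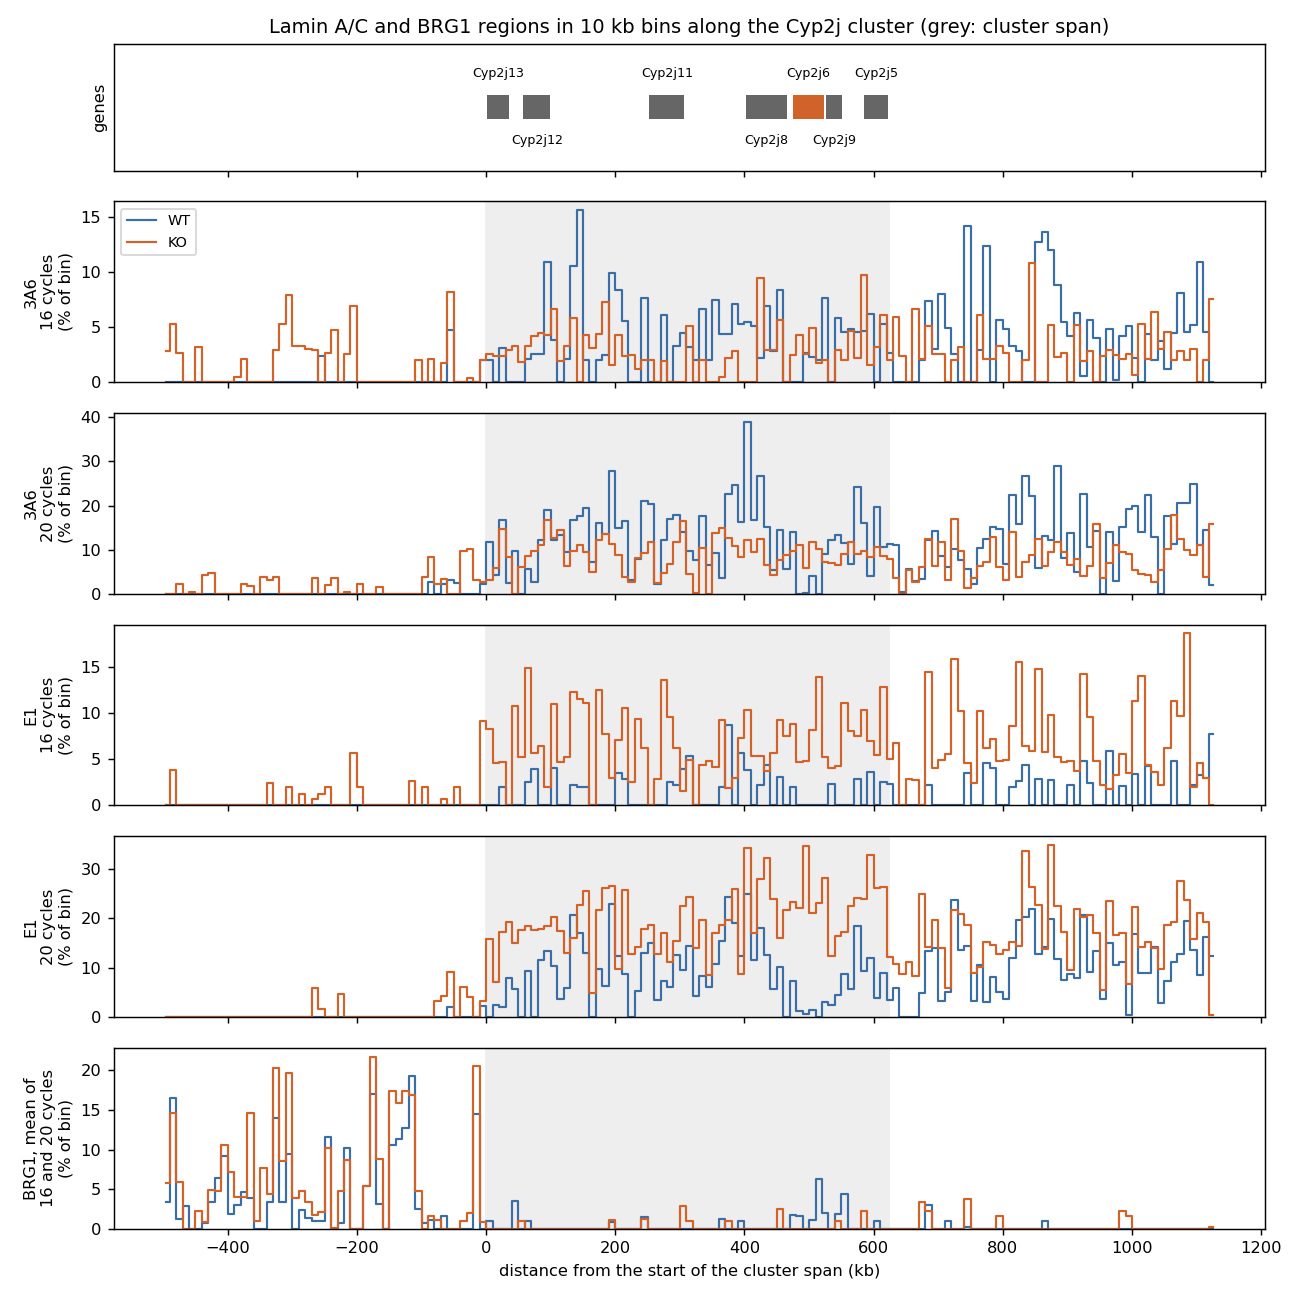
Percent of each 10 kb bin in lamin A/C regions (4 middle panels, WT and KO lines, 1 library each) and in BRG1 regions (bottom, mean of 16 and 20 cycles), against distance in kb from the start of the cluster span (grey). WT lamin A/C coverage begins near the left edge of the span, and lower KO coverage is also drawn before it. Of the 50 bins before the span, 44 are empty in all WT lists and 11 in all KO lists. BRG1 coverage lies mostly before the span, and the WT lamin A/C lines dip over Cyp2j6 in the panels with 20 cycles.

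Of 63 bins of 10 kb inside the span, 9 were higher in KO for lamin A/C in each of the 4 pairs and 1 was lower in each. In the 500 kb on each side, 3 of 50 bins were higher in each of the 4 pairs. Of the 9, 1 bin lay over Cyp2j13, starting 10 kb from the span's start (1.67% to 4.99%), and 3 lay between genes, starting 100, 110 and 230 kb from it (7.61% to 12.7%, 4.28% to 9.63% and 3.30% to 8.21%). Bins starting 50, 60 and 70 kb from the span's start overlapped Cyp2j12. They went from means of 0%, 4.90% and 2.30% in WT to 7.71%, 11.3% and 9.33% in KO. The first of them, chr4:96091660-96101659, lies mostly outside the gene, whose body begins at chr4:96099316. Bins starting 480 and 500 kb from it lay over Cyp2j6 and went from 0.335% and 1.96% to 10.5% and 11.5%. The Cyp2j6 bins lie in the dip of the WT profile, and their KO means were above the KO mean of the span. The bin that was lower in all 4 pairs started 370 kb from the span's start, between Cyp2j11 and Cyp2j8, and went from 14.99% to 9.09%.

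BRG1 regions at start sites were shared by Cyp2j6 and Cyp2j9 in WT. The genes were chosen by lamin A/C coverage, but with earlier results of these data known. A start-site region overlapped the 1 kb on either side of the RefSeq start. In WT, the Cyp2j6 start held a BRG1 region of 514 bp at 16 cycles (chr4:96553167-96553680) and of 452 bp at 20 cycles (chr4:96553198-96553649). The Cyp2j9 start held one of 526 bp at 16 cycles (chr4:96591522-96592047) and of 708 bp at 20 cycles (chr4:96591431-96592138). No other Cyp2j start site held a BRG1 region in WT, where 42.9% of 13411 genes did at 16 cycles, 67.8% at 20 cycles and 42.5% in both lists. In KO, neither BRG1 list held a region at the Cyp2j6 or the Cyp2j9 start, with 61.2% of all genes listed at 16 cycles and 64.6% at 20 cycles. A start-site region in both WT lists and in no KO list was found for 2 of 7 Cyp2j genes and for 39 genes in all, 0.291% of those tested and 0.684% of the 5700 genes with BRG1 in both WT lists. Of those 5700, 1.95% had no start-site region in the KO list at 16 cycles. With 1 library per group the difference has no replicate check beyond its presence at both sonication lengths, and the comparison was chosen after the values were seen. Counted within 1 kb of the body ends instead, WT cells had BRG1 at Cyp2j9 alone after 16 cycles, and at Cyp2j6 and Cyp2j9 after 20. The KO lists had no member there after 16 cycles, and Cyp2j5 and Cyp2j11 after 20. By that count Cyp2j9 was the sole member listed in both WT lists and neither KO list. For Cyp2j6 the pattern rests on the promoter entry's start site, which lies inside its RefSeq body. The KO list at 16 cycles was longer than the WT list, 107321 against 72225 regions, and the KO list at 20 cycles was shorter, 175619 against 205999, and unlike the WT list it held overlapping intervals.

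Over the whole windows, Cyp2j6 had BRG1 coverage of 1.02% at 16 cycles and 3.72% at 20 cycles in WT, in 1 and 7 regions, and of 0% in both KO lists. Of the 7 genes it was the member with BRG1 in both WT lists and in no KO list, as in 0.487% of all protein-coding genes of 5 kb or more. Cyp2j9 went from 2.02% to 0% at 16 cycles and from 2.71% to 0.76% at 20 cycles. BRG1 was lower in KO in both pairs for these 2 of 7 genes, against 7.12% of all genes. The combination of higher lamin A/C in each of 4 pairs with lower BRG1 in both was met by Cyp2j6 alone of the 7. It was met by 1.64% of all genes, and lamin A/C is the measure that chose Cyp2j6. Of the 1674 genes higher in each of the 4 lamin A/C pairs, 16.5% had lower BRG1 in both.

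The other members had few BRG1 regions. Cyp2j13 had 0.54% in WT at 16 cycles and Cyp2j12 0.45% in WT at 20 cycles, and both had 0% in the other BRG1 lists. Cyp2j5 went from 0.51% to 1.14% at 20 cycles and had 0% at 16 cycles. Cyp2j11 and Cyp2j8 had BRG1 in the KO list at 20 cycles alone, 1.03% and 0.77%. The Cyp2j11 region nearest its start lay at position -290, so at 20 cycles BRG1 was listed at a different Cyp2j start in KO from those in WT. The number of Cyp2j windows with a BRG1 region was 3 of 7 in WT and 0 of 7 in KO at 16 cycles, and 4 of 7 in both genotypes at 20 cycles. Of all genes, 61.1% of WT and 79.1% of KO windows held one at 16 cycles, and 88.1% of WT and 84.6% of KO windows did at 20 cycles.

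CHD4 regions lay mostly at Cyp2j9. Its start site held a CHD4 region of 302 bp at 16 cycles (chr4:96591634-96591935) and of 224 bp at 20 cycles (chr4:96591673-96591896) in WT, both inside the BRG1 regions listed there, and 63 of the capital bases printed for Cyp2j9 lie in both. Neither KO list held a CHD4 region within 1 kb of that start, a pattern met by 1 of 7 Cyp2j genes and 1.14% of all genes, or 6.13% of the genes with CHD4 at the start in both WT lists (18.6% of all). Over all genes, a CHD4 start-site region was listed for 19.4% and 60.9% in WT and for 53.2% and 4.23% in KO, at 16 and 20 cycles. CHD4 coverage of Cyp2j9 went from 2.34% to 0.76% at 16 cycles and from 2.11% to 0% at 20 cycles, lower in both pairs as in 7.58% of all genes. The KO list at 20 cycles held 7283 regions against 109769 in WT, and 78.1% of all genes were lower in it. At 16 cycles the KO list was the longer, 88788 against 49441 regions, and 8.75% of all genes were lower. The sole other member with CHD4 was Cyp2j12, with 0.47% in KO at 16 cycles.

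**Figure D4:**
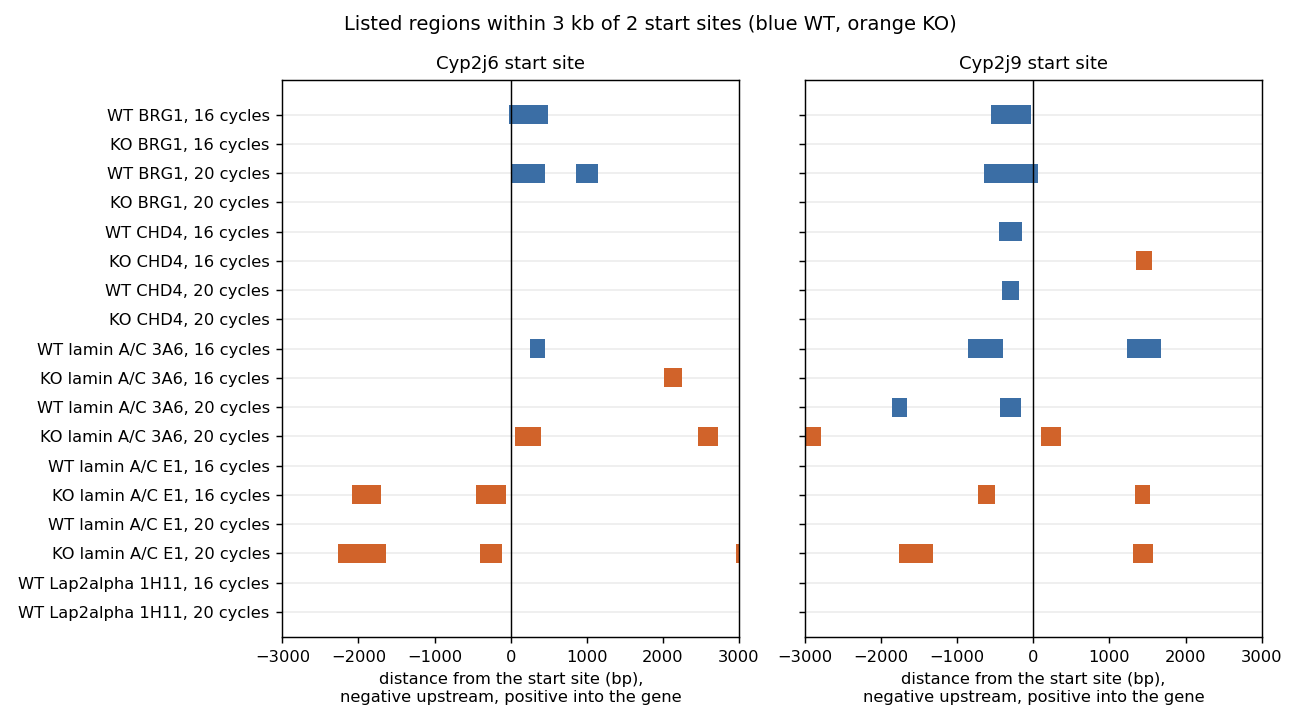
Listed regions within 3 kb of the Cyp2j6 (left) and Cyp2j9 (right) start sites, 1 row per library, WT in blue and KO in orange, against distance from the start in bp (negative upstream). BRG1 regions are drawn at both starts in the WT rows and in no KO row, and E1 regions in KO rows alone.

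Lamin A/C regions at the same start sites are drawn beside them. Within 1 kb of the Cyp2j6 start, 1 of 4 WT lists held a region (3A6, 16 cycles) and 3 of 4 KO lists did (3A6 at 20 cycles, E1 at 16 and at 20 cycles). The WT region, 198 bp long, lay 255 to 452 bases into the gene and so inside the WT BRG1 region of the same sonication length. The E1 regions in KO spanned positions -456 to -63 from the start at 16 cycles and -407 to -112 at 20 cycles. At the Cyp2j9 start both WT 3A6 lists held a region, and in KO the lists of 3A6 at 20 cycles and E1 at 16 cycles did. Over the 7 genes, a start-site region was listed for 2, 4, 1 and 3 genes in WT (3A6 at 16 and 20 cycles, E1 at 16 and 20 cycles) and for 2, 6, 4 and 6 genes in KO. The shares over all genes were 1.74%, 4.88%, 0.858% and 3.65% in WT and 14.8%, 10.8%, 3.1% and 7.37% in KO. Counted within 1 kb of either end of the RefSeq body, the numbers were 2, 6, 2 and 4 in WT and 2, 6, 4 and 7 in KO, where the shares over all genes were 3.23%, 6.74%, 1.6% and 5.2% in WT and 23.3%, 17%, 5.95% and 10.8% in KO. Cyp2j starts were thus no more often listed in KO than in WT with 3A6 at 16 cycles, the pair in which the share over all genes differed most.

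Lap2alpha was mapped in WT cells. At 16 cycles Cyp2j12 had 0.57% and Cyp2j8 0.85%, and the other 5 genes had 0%, so 2 of 7 were covered, against 36.1% of all genes. At 20 cycles 7 of 7 were covered, against 63.6% of all genes, from 0.36% (Cyp2j11) to 1.23% (Cyp2j13), with 0.41% over Cyp2j6. No Cyp2j start site held a Lap2alpha region at either length, against 5.15% and 16.3% of all genes. The median over all genes of 5 kb or more was 0% at 16 cycles and 0.67% at 20 cycles, and the median of the 7 genes was 0% and 0.53%. Cyp2j8 and Cyp2j12 were the members covered in both lists.

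The 3 pseudogenes in the span were covered too. Cyp2j7 went from 7.06% ± 7.26 in WT to 9.92% ± 6.79 in KO over the 4 lamin A/C pairs, Cyp2j15-ps from 5.38% ± 3.43 to 7.96% ± 5.77, and Cyp2j14-ps from 6.73% ± 4.80 to 6.90% ± 7.98. None of the differences, 2.87 ± 7.68, 2.59 ± 6.06 and 0.16 ± 7.10 points, passed the spread over pairs. All 3 had lamin A/C regions in each of the 8 lists. Of the neighbouring genes outside the span, Fggy had 0.016% in WT and 0.871% in KO and Hook1 0.60% and 2.62%, both higher in 4 of 4 pairs, while Gm12695 had 6.37% and 9.04% with 2 of 4 pairs higher.

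Genes of the pathway around the Cyp2j enzymes had little lamin A/C coverage. The list held 16 genes that make, process or support eicosanoids and epoxides, among them the cyclooxygenases, the lipoxygenases, the epoxide hydrolases and P450 reductase. Of these 16, 0 were higher in all 4 pairs (9.94% of all genes) and 0 were lower (0.605% of all genes). Their median coverage was 0% in WT and 0.46% in KO, close to the 0% and 0.54% of all genes. BRG1 covered a median of 7.69% of these genes in WT and 9.13% in KO, against 0.26% and 0.38% of the Cyp2j genes and 3.55% and 4.25% of all genes. BRG1 was in both WT lists for 13 of the 16 pathway genes, for 2 of the 7 Cyp2j genes and for 60.7% of all genes.

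Other cytochrome P450 clusters were counted in the same way, where 9.94% of all genes were higher in all 4 pairs and 0.605% lower. Of 15 Cyp2c genes, which include arachidonic acid epoxygenases, 0 were higher in KO in all 4 pairs and 8 were lower. Their median difference was -2.44 points, against 3.71 for the Cyp2j genes and 0.45 for all genes. Cyp2c54 went from a mean of 11.1% to 3.15%, Cyp2c39 from 11.04% to 3.46% and Cyp2c37 from 12.0% to 4.62%. Of 9 Cyp3a genes 1 was higher in all 4 pairs, Cyp3a13, from 0.27% to 2.75%, and 5 had E1 higher and 3A6 lower in both pairs, as 3 of the 7 Cyp2j genes and 1.42% of all genes did. Of 10 genes of the Cyp4a, Cyp4b and Cyp4x cluster, also on chromosome 4, 1 was higher in all 4 pairs, Cyp4a14, from 4.31% to 8.94%. Of 13 genes of the Cyp2a, Cyp2b, Cyp2f, Cyp2g, Cyp2s and Cyp2t cluster 1 was higher, Cyp2b19, from 0% to 1.10%, and of 8 Cyp2d genes 0 were. In the Cyp3a, Cyp4, Cyp2a to Cyp2t and Cyp2d clusters the number higher in all 4 pairs was thus near the share over all genes. Genes of 1 cluster share a stretch of chromosome and are not independent.

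The genes whose coverage over the 18 lists was most like that of the cluster span were Cntn1 on chromosome 15 (Pearson r = 0.995), Car10 on chromosome 11 (0.995), Cntnap3 on chromosome 13 (0.994), Dab1 on chromosome 4 (0.992) and Mroh2b on chromosome 15 (0.992), of 15318 genes compared. Cntn1, Cntnap3 and Dab1 are best known from neurons. The lists share their lengths and forms, which enter every gene's profile alike, so these values describe likeness across libraries and carry no test.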

How the data were processed

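Lamin A/C, BRG1, CHD4 and Lap2alpha ChIP-seq libraries of mouse dermal fibroblasts, labelled WT or Lap2alpha KO, were compared. The authors deposited 18 lists of intervals, each with chromosome, start and end in bp and no height, fold, count or score, so sequencing depth is unknown and every interval has equal weight. Per the submitters' processing notes, the build is GRCm38 and the tools include HOMER 4.11.1, MACS2 2.1.4, SAMtools, bedtools and deepTools. Their roles, the threshold, the control and any pooling are not given here by any label or header. DSG and formaldehyde served as crosslinkers and chromatin was sheared by sonication, per the labels' protocols. Sample titles gave the groups, 1 library per genotype, antibody and sonication length, and the 4 input samples of 22 were not analysed here.

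Overlapping or touching intervals of a list were merged into regions with Python 3.11.15, numpy 2.4.6 and pandas 2.3.3, after intervals of width 0 and off the assembled chromosomes were left out. Lists held 7283 to 233745 regions. In 7 lists intervals overlapped before merging. For each protein-coding gene of the RefSeq GRCm38 table, percent covered was the covered bp of the body plus 1 kb on each side. Start sites and promoter sequences came from RefSeq promoter entries of GRCm38.p6. Promoters were aligned with Biopython 1.88. Differences are KO minus WT in percentage points, matched on antibody and cycles. Single libraries allow no test, so there are no p-values, and SDs over pairs or libraries cover antibody and sonication, not replicates. Background shares are over 16849 protein-coding genes of 5 kb or more, or 13411 of them with a start site.

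The members, gene lists, comparisons and start-site counts were chosen with earlier results of these data known. Named genes were all 7 Cyp2j genes, neighbours within 500 kb, up to 3 genes per list that went the same way in all 4 lamin pairs, and the 5 genes most like the cluster span; genes of the closing observation were named after their values were seen. The alternatives were wider merging, wide regions only, matched numbers of the widest regions, scaling to genome-wide coverage, windows at region centres, other flanks, single antibodies or sonication lengths, omitted pairs and other end windows. Interval functions were tested on simulated intervals.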

Additional observations from a re-analysis of the deposited data

Results flagged for a closer look

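For 3 Cyp2j genes and for the cluster span, the lamin A/C difference, KO minus WT, was negative in both 3A6 pairs and positive in both E1 pairs. The E1 mean was 15.4 percentage points above the 3A6 mean for Cyp2j9 (10.2 with E1 and -5.14 with 3A6). The gap was 13.4 points for Cyp2j8 (8.08 and -5.33), 9.23 points for Cyp2j11 (5.85 and -3.38) and 10.4 points for the whole span (8.11 and -2.28). The difference between antibodies was not tested, since each antibody gives 2 pairs that differ in sonication and no replicates. The forms of the lists moved with it: all 4 E1 lists held overlapping intervals and a maximum width of 482 to 628 bp, while of the 3A6 lists only the KO list at 20 cycles held overlapping intervals. The part of list form in the difference was not tested. Cyp2j6 and Cyp2j12 did not meet this pattern and were higher in KO with both antibodies.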

How the results depend on the processing

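The lamin A/C coverage of Cyp2j6, by which it was chosen, was higher in KO on average under all 15 alternatives. Mean differences ran from 3.61 points (3A6 pairs) to 14.97 points (E1 pairs), and from 4.96 to 12.0 points with 1 pair left out. All 4 pairs were positive in the reported values, so a positive mean over any part of them follows and is no separate check. With regions of at least 300 bp, and after scaling to the same genome-wide coverage, 3 of 4 pairs were positive. The number of genes higher in all pairs compared, 2 in the reported values, was 0 with regions of at least 300 bp and 0 after scaling to the same genome-wide coverage. It was 1 (Cyp2j6) with equal numbers of the widest regions and 1 (Cyp2j6) without flanks, 4 at 16 cycles alone and 7 with E1 alone, and 2 to 4 with 1 pair left out. Fewer pairs make the condition easier to meet, and the cause of the other changes was not tested. The lamin A/C difference of the span, 2.91 points, was -2.28 with 3A6 alone, 8.11 with E1 alone, 0.53 after scaling and 0.24 to 5.08 with 1 pair left out. The BRG1 difference of the span was -0.26 points, and -0.13 with 200 bp windows at region centres; it was negative in the other settings run. The CHD4 difference, -0.043, was 0.034 at 16 cycles alone. BRG1 start-site loss was met by 2 genes (Cyp2j6 and Cyp2j9) in all 4 settings added after seeing the data. Pairs were matched on antibody and cycles throughout, and no fit with a replicate block could be made, since each group holds 1 library and the labels carry no replicate numbers. Depth is unknown from intervals, so an empty window does not show that a protein is absent.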

Other observations

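The 39 genes with a BRG1 start-site region in both WT lists and in no KO list were looked at because Cyp2j6 and Cyp2j9, which are neighbours, were among them. Of the 39, 13 (33.3%) were higher in KO for lamin A/C in each of the 4 pairs, against 9.94% of all protein-coding genes of 5 kb or more, and none was lower in each of the 4. The 13 are Cyp2j6, Adgrg6, Plek, Efemp1, Gpr141, Kcng3, Lgi1, Gca, Chn1, Ppargc1a, Cyp3a13, Slco1a5 and Ces1e. Their bodies were 28414 bp (Ces1e) to 661605 bp (Ppargc1a) long, while the shortest of the 39 was 5402 bp (Birc7). The 9.94% was not matched to the 39 on gene length, nor limited to genes with BRG1 at the start in WT. Over genes of 20 to 70 kb the share was 7.78%. The part of gene length in the 33.3% was not tested. Cyp2j6 was chosen by its lamin A/C coverage in these same libraries, so its place among the 13 follows from that choice. The counts come from single libraries and the comparison was chosen after seeing the data, so they carry no test.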
